A study of Mus musculus with 4 samples.

Results

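The genes described here are 9 genes of the complement system, namely C3, C1s1, C1ra, Cfb, C2, C4b, Serping1, Cd55 and Cd59a. They were chosen by name, as the rows of the deposited count table whose NCBI gene ID belongs to these mouse symbols, and make up 9 of its 27179 genes. The cells were MC38, a mouse colon carcinoma line with the wild-type genotype in all 4 libraries. The libraries came from untreated cells under normoxia (20% oxygen), untreated cells under hypoxia (1.5% oxygen), IFN-γ treated cells under normoxia and IFN-γ treated cells under hypoxia. The IFN-γ dose used elsewhere in the same work was 5 ng/mL for 24 h, and it was not stated separately for these libraries. Each condition was 1 library of 1 culture, so no value below has a replicate. The comparisons addressed how IFN-γ and low oxygen, alone and together, altered the RNA of these genes in tumor cells.

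Complement is a cascade of proteases and cofactors that marks, opens and inflames targets. In the classical pathway C1q binds a target, the protease C1r (C1ra in the mouse) activates the protease C1s (C1s1), and C1s cuts C4 (C4b) and C2, which together form an enzyme that cuts C3. In the alternative pathway factor B (Cfb) joins cleaved C3 to form a second such enzyme. Serping1 encodes the C1 inhibitor, Cd55 speeds the decay of the C3-cutting enzymes on the cell surface, and Cd59a blocks the final membrane pore. Most complement protein in blood is made by the liver, and many other cells, tumor cells included, make some components themselves. IFN-γ is a cytokine that signals through JAK kinases.

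The upstream bases of C1s1 and C3 are shown because one gene rose with IFN-γ and the other did not, although both were well counted. Both run 5′ to 3′ on the minus strand of GRCm38.p6 and end just before the first annotated base of the gene. They come from the RefSeq promoter table, which had an entry for 5 of the 9 members (C1ra, C1s1, C3, Cd55 and Cd59a). The stretch of C1s1 lies at chr6:124542393-124542609 and that of C3 at chr17:57228137-57228386.
C1s1: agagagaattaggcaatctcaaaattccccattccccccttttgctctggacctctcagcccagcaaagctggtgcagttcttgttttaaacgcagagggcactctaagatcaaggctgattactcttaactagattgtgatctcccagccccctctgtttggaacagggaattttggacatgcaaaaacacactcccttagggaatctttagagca
C3: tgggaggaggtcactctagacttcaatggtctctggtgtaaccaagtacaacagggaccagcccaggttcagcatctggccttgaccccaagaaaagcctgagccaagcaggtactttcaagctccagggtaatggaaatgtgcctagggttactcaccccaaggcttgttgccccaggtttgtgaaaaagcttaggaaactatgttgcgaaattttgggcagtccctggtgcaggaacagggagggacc
No base is in capitals because none of the motifs searched was found in either. The search covered the 250 bases before each listed start on both strands. It used the GAS site of IFN-γ responsive genes TTCNNNGAA (found in 7.02% of 32851 promoters), the IRF site GAAANNGAA (7.13%), the hypoxia response core ACGTG (16.6%), the NF-kappaB site by name (11.3%) and the TATA box TATAAA (12.4%). Among the members the single match was an IRF site in the Cd59a promoter, at position -187 from the start. These are matches of letters in a short window, and they do not show whether a factor binds there or elsewhere.

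Library totals were nearly equal, from 34302971 to 34537939 counts. Genes known to respond to IFN-γ and to hypoxia moved as the labels say. Irf1, a transcription factor induced by IFN-γ, had 3770 and 4422 counts without IFN-γ and 20118 and 23759 with it. Car9, a carbonic anhydrase induced by low oxygen, had 422 and 324 counts under normoxia and 1733 and 1536 under hypoxia. Epithelial markers were low for a line labelled as colon cancer cells: Cdh1 and Cdx2 were at 0 in every library, Epcam had at most 2 counts, Krt8 had 48 to 90, Krt20 12 to 22 and Vil1 7 to 17, and 8 such markers summed to 85 to 113 counts. A set of 6 mesenchymal markers summed to 89972 to 100761 counts. Most of that sum was Vim (74838 to 81307) and Fn1 (13791 to 20142), while Pdgfra had 1077 to 1341. The sum therefore says little about the rest of the set, Col1a1, Col1a2 and Pdgfrb. Of 10 macrophage markers, Adgre1, Itgam, C1qa and C1qc were at 0 throughout, while Cd68 had 170 to 236 counts, and the summed level was 311, 344, 313 and 260 in the order control normoxia, control hypoxia, IFN-γ normoxia, IFN-γ hypoxia. The sum of 5 liver markers was 0 to 6 counts. In bulk RNA, fewer cells of a type and less RNA per cell cannot be told apart.

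The 9 genes fell into 3 ranges of level, as the plot of member counts shows. C1ra, C1s1, C3 and Cfb had at least 100 counts in every library. C4b and C2 had 30 or fewer in every library. Serping1, Cd55 and Cd59a had at most 4, which is under the 6 counts (3 read pairs) that a reading of 0 allows here. Of the 9 genes, 6 had enough counts to be tested and 3 did not. In an edgeR quasi-likelihood fit with IFN-γ and oxygen as additive terms (Benjamini-Hochberg adjusted p under 0.05), 3 members rose with IFN-γ and 0 fell. Over all 13580 genes tested, 4.76% rose and 1.10% fell with IFN-γ. C4b passed the filter on low counts through its IFN-γ libraries, so its place among the tested genes was not independent of its change.

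**Figure D1:**
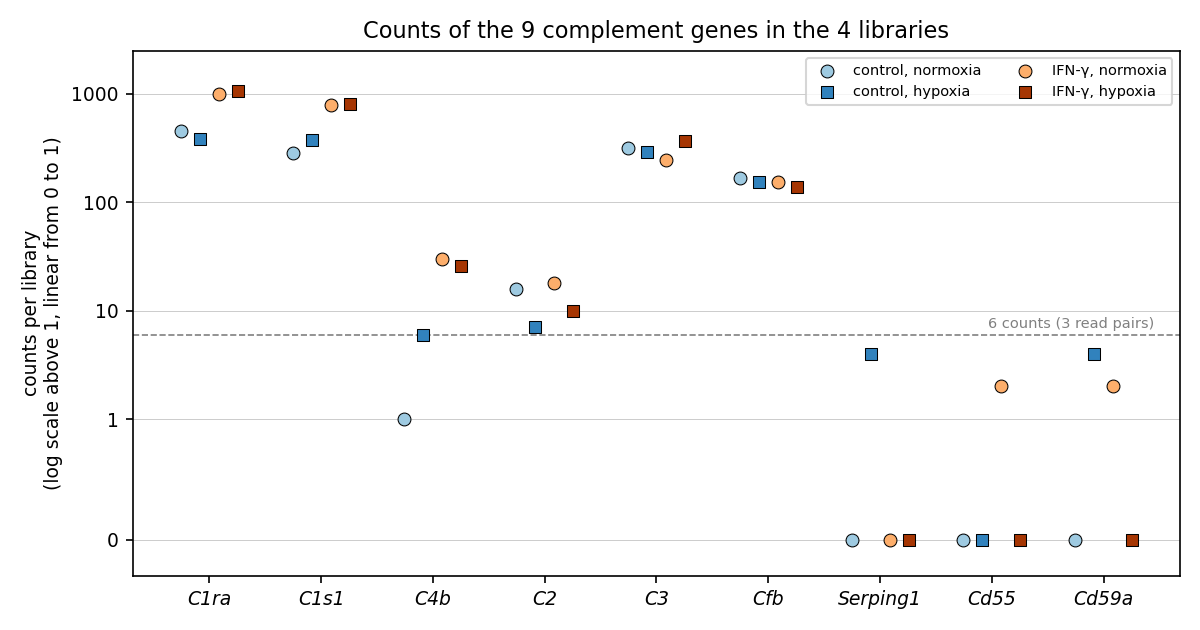
Counts of each of the 9 members in the 4 libraries, on an axis that is logarithmic above 1 and linear from 0 to 1, with 1 point per library and a dashed line at 6 counts. For C1ra, C1s1 and C4b both IFN-γ points sit above both control points, while Serping1, Cd55 and Cd59a stay under the line in every library.

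C1ra and C1s1, the proteases of the C1 complex, both rose with IFN-γ, about 2.5-fold. C1ra (gene 50909, chr6:124512621-124523440) had 459 counts in the control library under normoxia, 380 in the control library under hypoxia, 1005 in the IFN-γ library under normoxia and 1072 in the IFN-γ library under hypoxia. Both IFN-γ libraries were above both control libraries. Such a separation of 2 libraries from 2, here and below, is a description only, and its share over all genes is not given. The fitted log2 change was 1.32 with an SE of 0.0937 (edgeR quasi-likelihood test, Benjamini-Hochberg adjusted p = 6.9e-43, and between 3.24e-43 and 0.00309 over 8 alternative fits). In the normoxic pair alone C1ra was 2.21-fold higher with IFN-γ (log2 1.14, 95% counting interval 0.92 to 1.37). In the hypoxic pair it was 2.84-fold higher (log2 1.51, interval 1.27 to 1.76).

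C1s1 (gene 50908, chr6:124530344-124542392) had 286 counts in the control library under normoxia, 372 in the control library under hypoxia, 797 in the IFN-γ library under normoxia and 802 in the IFN-γ library under hypoxia. Again the groups did not overlap, and the level with IFN-γ was nearly the same in both oxygens. The fitted log2 change was 1.30 with an SE of 0.104 (edgeR quasi-likelihood test, Benjamini-Hochberg adjusted p = 7.31e-34, and between 1.75e-31 and 0.00716 over 8 alternative fits). The pairs gave 2.81-fold under normoxia (log2 1.49, interval 1.22 to 1.78) and 2.17-fold under hypoxia (log2 1.12, interval 0.87 to 1.38). Scaled to exon length and library total (RPKM), the level of C1ra was 4.49, 3.69, 9.76 and 10.4 and that of C1s1 2.66, 3.44, 7.37 and 7.45, in the order control normoxia, control hypoxia, IFN-γ normoxia, IFN-γ hypoxia. The ratio of these levels, C1ra over C1s1, was 1.68, 1.07, 1.32 and 1.4, by a small margin above 1 in the control library under hypoxia. These ratios have no interval. They take the full exon length and do not allow for sequence that each gene shares with other genes, described next.

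The pair lies side by side on chromosome 6, with 6903 bases between the ends of the genes, and each has a near copy in the same region. Of the 31-base words in C1ra transcripts, 56.9% also occur in C1rb, and of those in C1s1 transcripts 33.5% also occur in C1s2. Over all other annotated genes the shares were 59.6% for C1ra and 47.6% for C1s1, so sums with 1 copy cover part of the sharing. C1rb had 2, 0, 7 and 3 counts and C1s2 had 23, 33, 26 and 24 in the same order of libraries, far below the members. Summed with its copy, C1ra changed by log2 1.15 under normoxia and 1.51 under hypoxia, and C1s1 by 1.43 and 1.04. With the copies added, both IFN-γ libraries still lay above both control libraries for each sum. C1q, the part of the complex that binds the target, was nearly unread: C1qa and C1qc were at 0 in every library and C1qb had 8, 0, 1 and 0 counts. C1rl, a gene related to C1r, had 28, 24, 48 and 52 counts, with a log2 change of 0.95 (SE 0.365, edgeR quasi-likelihood test, adjusted p = 0.12) that did not pass.

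C4b and C2 encode the substrates of C1s. C4b was the third member called, on few counts and in some of the fits only. C4b (gene 12268, chr17:34728139-34743902) had 1 count in the control library under normoxia, 6 in the control library under hypoxia, 30 in the IFN-γ library under normoxia and 26 in the IFN-γ library under hypoxia. The order of the groups was clear, but at a few read pairs in the controls the size was not. The fitted log2 change was 2.98 with an SE of 0.647 (edgeR quasi-likelihood test, Benjamini-Hochberg adjusted p = 0.000135). The normoxic pair gave 20.5-fold with a counting interval of 2.33 to 638, and the hypoxic pair 4.11-fold with an interval of 1.2 to 23.9.

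The call of C4b did not hold in every fit: it passed in 4 of 7 alternatives, with adjusted p between 0.0042 and 0.366 (edgeR quasi-likelihood or DESeq2 Wald tests). C4a, which shares 48.3% of the words of C4b, had 28, 44, 34 and 29 counts in the order given above, and a log2 change with IFN-γ of -0.16 (edgeR adjusted p = 0.945). Summed, C4b and C4a had 29 counts without and 64 with IFN-γ under normoxia (log2 1.14, interval 0.18 to 2.10), and 50 and 55 under hypoxia (log2 0.15, interval -0.65 to 1.01). How the counting divided reads between C4b and C4a is not given in the sources used here, so the C4b value is uncertain. C2 (gene 12263, chr17:34862602-34882100) had 16, 7, 18 and 10 counts in the same order. Its log2 change with IFN-γ was 0.31 with an SE of 0.594 (edgeR quasi-likelihood test, adjusted p = 0.929), and a change of the size seen in C1ra or C1s1 was not detectable at this depth.

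C3, the protein on which all routes of the cascade converge, did not pass the test for IFN-γ. C3 (gene 12266, chr17:57203967-57228136) had 314 counts in the control library under normoxia, 288 in the control library under hypoxia, 248 in the IFN-γ library under normoxia and 364 in the IFN-γ library under hypoxia. The lowest and the highest of the 4 values were both from IFN-γ libraries. The fitted log2 change with IFN-γ was 0.02 with an SE of 0.13 (edgeR quasi-likelihood test, adjusted p = 0.983). It was made of -0.33 in the normoxic pair (interval -0.68 to 0.02) and 0.35 in the hypoxic pair (interval 0.03 to 0.68). On the counts as deposited the normoxic interval was -0.57 to -0.08 and left out 0. No 31-base word of C3 occurs in another annotated gene, so no copy bears on these counts.

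Cfb (gene 14962, chr17:34856374-34862514), the protease partner of C3 in the alternative pathway, had 166, 155, 155 and 139 counts in the order control normoxia, control hypoxia, IFN-γ normoxia, IFN-γ hypoxia. The 4 values lay within a narrow band. Its log2 change with IFN-γ was -0.11 with an SE of 0.177 (edgeR quasi-likelihood test, adjusted p = 0.903), and the pairs gave -0.08 (interval -0.54 to 0.39) and -0.14 (interval -0.63 to 0.34). Both upper ends were below the lower ends for C1ra and C1s1 in the same oxygen. Cfb and C2 are 87 bases apart within a stretch of 153962 bases that also holds C4b and C4a, and C2 and Cfb did not pass the test for IFN-γ. Cfb shares 75.5% of its words, and C2 40.2%, with Gm20547, an annotated transcript that runs through Cfb and C2. On the opposite strand, 1 base away, lies Nelfe, with 2763, 2700, 2678 and 2702 counts, and whether counting used strand is not given in the sources used here.

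**Figure D2:**
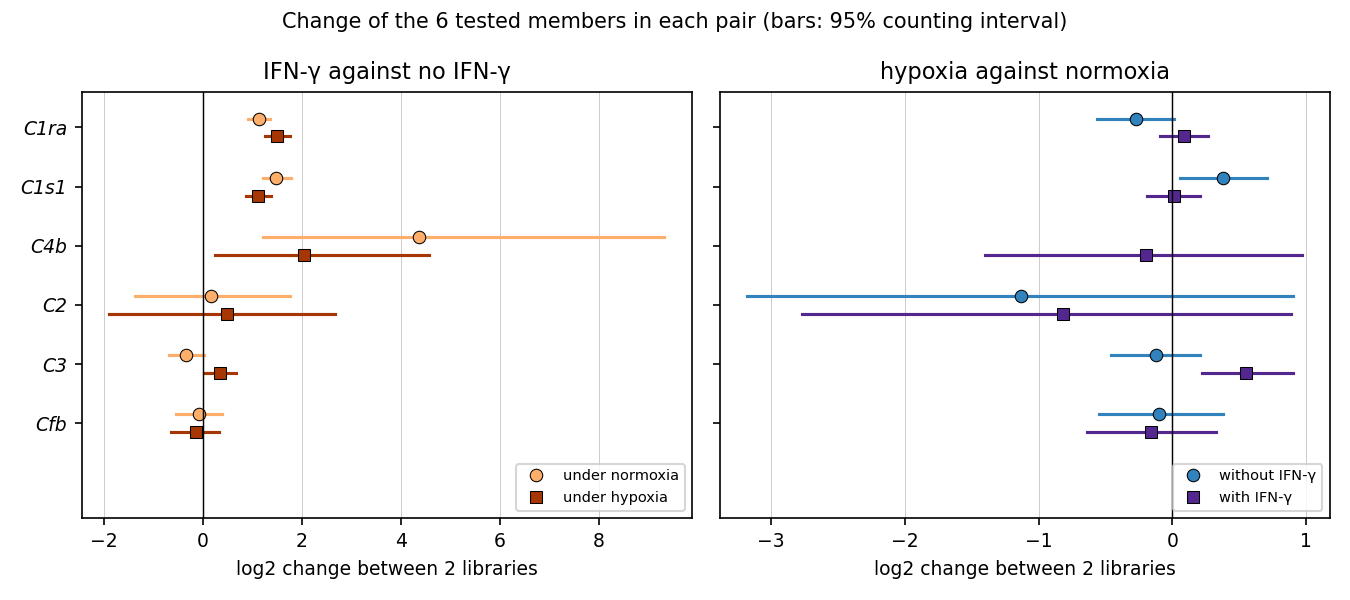
Log2 change between 2 libraries for the 6 tested members, IFN-γ against no IFN-γ on the left and hypoxia against normoxia on the right, with bars for the 95% counting interval. The bars of C1ra, C1s1 and C4b lie to the right of 0 in both IFN-γ pairs. The point of C3 lies left of 0 under normoxia, with a bar that crosses 0 (-0.68 to 0.02). Under hypoxia the point and the bar of C3 lie right of 0. No point is drawn for C4b in the hypoxia pair without IFN-γ, where both libraries had 6 counts or fewer.

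The 3 regulators among the members were at or near 0. Serping1 (gene 12258, chr2:84765360-84775444) had 4 counts in the control library under hypoxia and 0 in the other libraries. Cd55 (gene 13136, chr1:130429798-130465009) had 2 counts in the IFN-γ library under normoxia and 0 elsewhere. Cd59a (gene 12509, chr2:104095753-104115410) had 0, 4, 2 and 0 counts in the order given above. None could be tested, and a count of 0 here allows up to 0.175 CPM (counts scaled to the library total), on counting error only. Their near copies Cd55b and Cd59b were at 0 in every library, so no reads had gone there.

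Another membrane regulator was read well. Cr1l, the mouse gene for Crry, which limits C3 and C4 activation on rodent cells, had 1222, 1237, 1306 and 1251 counts in the order control normoxia, control hypoxia, IFN-γ normoxia, IFN-γ hypoxia. Its log2 change was 0.07 with IFN-γ and -0.02 with hypoxia (SE 0.0775 for both, edgeR adjusted p = 0.831 and 0.906). Clu, which encodes clusterin, a soluble protein that binds the terminal complex, had 1997, 1806, 1640 and 1833 counts. Among other regulators, Cd46 had 7 to 9 counts, and C4bp, Vtn and Susd4 were at 0 throughout.

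With hypoxia, 0 of the 6 tested members rose and 0 fell by the edgeR quasi-likelihood test, and the same counts held at an unadjusted p under 0.05. Over all genes tested, 8.21% rose and 6.83% fell with hypoxia. The fitted log2 changes were -0.06 for C1ra (SE 0.0928), 0.16 for C1s1 (SE 0.103), 0.22 for C3 (SE 0.131), -0.13 for Cfb (SE 0.177), -0.99 for C2 (SE 0.602) and 0.19 for C4b (SE 0.575). DESeq2's Wald test gave an adjusted p for hypoxia for 3 of the 6 (C1ra, C1s1 and C3), and none of these passed. Single pairs moved more than the fit in some members. C3 was 1.47-fold higher under hypoxia in the IFN-γ libraries (log2 0.55, interval 0.22 to 0.90) and at -0.12 in the control libraries (interval -0.46 to 0.21). C1s1 had a log2 change of 0.38 in the control libraries (interval 0.06 to 0.71) and 0.01 in the IFN-γ libraries (interval -0.19 to 0.21).

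The IFN-γ changes of the members were then set against each other across oxygen. The difference, hypoxia minus normoxia, was 0.68 for C3 (counting interval 0.21 to 1.14), 0.36 for C1ra (0.04 to 0.69), -0.37 for C1s1 (-0.74 to 0.00) and -0.06 for Cfb (-0.70 to 0.58), all on the log2 scale. C1ra and C1s1 thus differed in opposite directions by like amounts. The interval left out 0 for 2 of these 4 members, and for 20.1% of the 10443 genes that had 100 counts or more in each library. On the counts as deposited, without halving, 3 of the 4 members and 34.5% of those genes lay outside their intervals. The central 95% of those genes ran from -0.36 to 0.40, so C1ra lay inside it, C1s1 just below its lower end and C3 well above its upper end. The difference of C3 ranked 29 of 10443 from the top, with 0.268% of genes above it. Neither this rank nor the central 95% took account of depth. The counting interval of C3 was wider than that of better counted genes such as Clu (0.12 to 0.49). Whether a difference of this size is rare among genes of like depth was not tested. Without a second library per condition, the spread between cultures is unknown and none of these differences was tested.

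**Figure D3:**
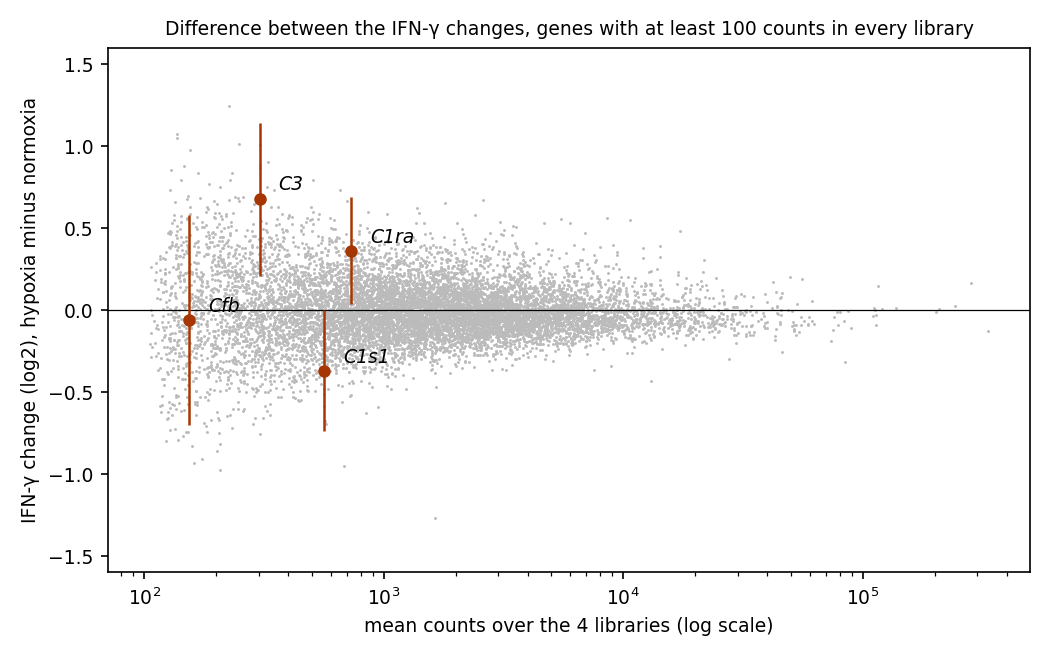
Difference between the IFN-γ changes (log2, hypoxia minus normoxia) against mean counts over the 4 libraries on a log axis, for 10443 genes in grey and for C1ra, C1s1, C3 and Cfb in color with 95% counting intervals. C3 lies near the upper margin of the cloud at its level, while the other 3 members shown lie within it.

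The genes whose pattern over the 4 libraries was nearest to that of C3 were found by the Euclidean distance over 3 log2 changes (IFN-γ under normoxia, IFN-γ under hypoxia, hypoxia without IFN-γ), among 11488 genes whose mean was 50 counts or more. They were Mpped2 (distance 0.0428), 2810410L24Rik (0.0538), a gene with the ID 100504127 and no symbol (0.0731), Slc36a4 (0.0786) and Zc2hc1c (0.088). All 5 had fewer counts than C3 in each library. Slc36a4, the best counted of them, had 196, 175, 154 and 211 counts.

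The members were read against a list of 55 complement genes written from general knowledge of the cascade. Earlier results of these data were known when it was written. Of these, 14 were at 0 in every library, 29 had 6 counts or fewer in every library, and 18 could be tested. By the edgeR quasi-likelihood test 3 rose with IFN-γ, namely C1ra, C1s1 and C4b, and 0 fell, beside 4.76% and 1.10% of all genes tested. At an unadjusted p under 0.05 the edgeR test called 4 higher and 1 lower, beside 8.13% and 5.84% of all genes. The median log2 change of the 18 genes was 0.01 with IFN-γ and -0.01 with hypoxia, against -0.01 and 0.00 over all genes tested.

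By role, the genes that rose were all among the 8 tested of 19 genes that start the classical and lectin pathways. The median log2 change of those 8 with IFN-γ was 0.63. None of the 8 lay between 0.31 (C2) and 0.95 (C1rl), and C4b was among them at 2.98 on few counts. C4b passed the filter through its IFN-γ libraries, so its part in this median and among the genes that rose was not independent of its change. Of the 4 genes of C3 and the alternative pathway, 3 were tested and 0 passed, with a median of -0.11. The third gene tested there was Cfp, properdin, which stabilizes the alternative pathway enzyme and had 283, 228, 190 and 219 counts (log2 change -0.30 with IFN-γ, edgeR adjusted p = 0.323). Cfd, the protease that cuts factor B, had at most 2 counts. Of 7 genes of the terminal pathway 2 were tested, and Hc, the mouse gene for C5, had 248, 288, 252 and 276 counts, while C6 and C8a were at 0.

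With hypoxia 1 of the 18 tested genes of the list fell and 0 rose, against 6.83% and 8.21% of all genes tested. The gene that fell was C1qbp, a mainly mitochondrial protein first named for binding C1q, with 7835 and 7523 counts under normoxia and 6305 and 6184 under hypoxia. Both hypoxic libraries were below both normoxic libraries. Its log2 change was -0.30 with an SE of 0.0561 (edgeR quasi-likelihood test, adjusted p = 4.75e-06). It passed in 7 of 8 alternative fits, and the exception compared 2 libraries with 2 without IFN-γ as a term (edgeR adjusted p = 0.0772).

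**Figure D4:**
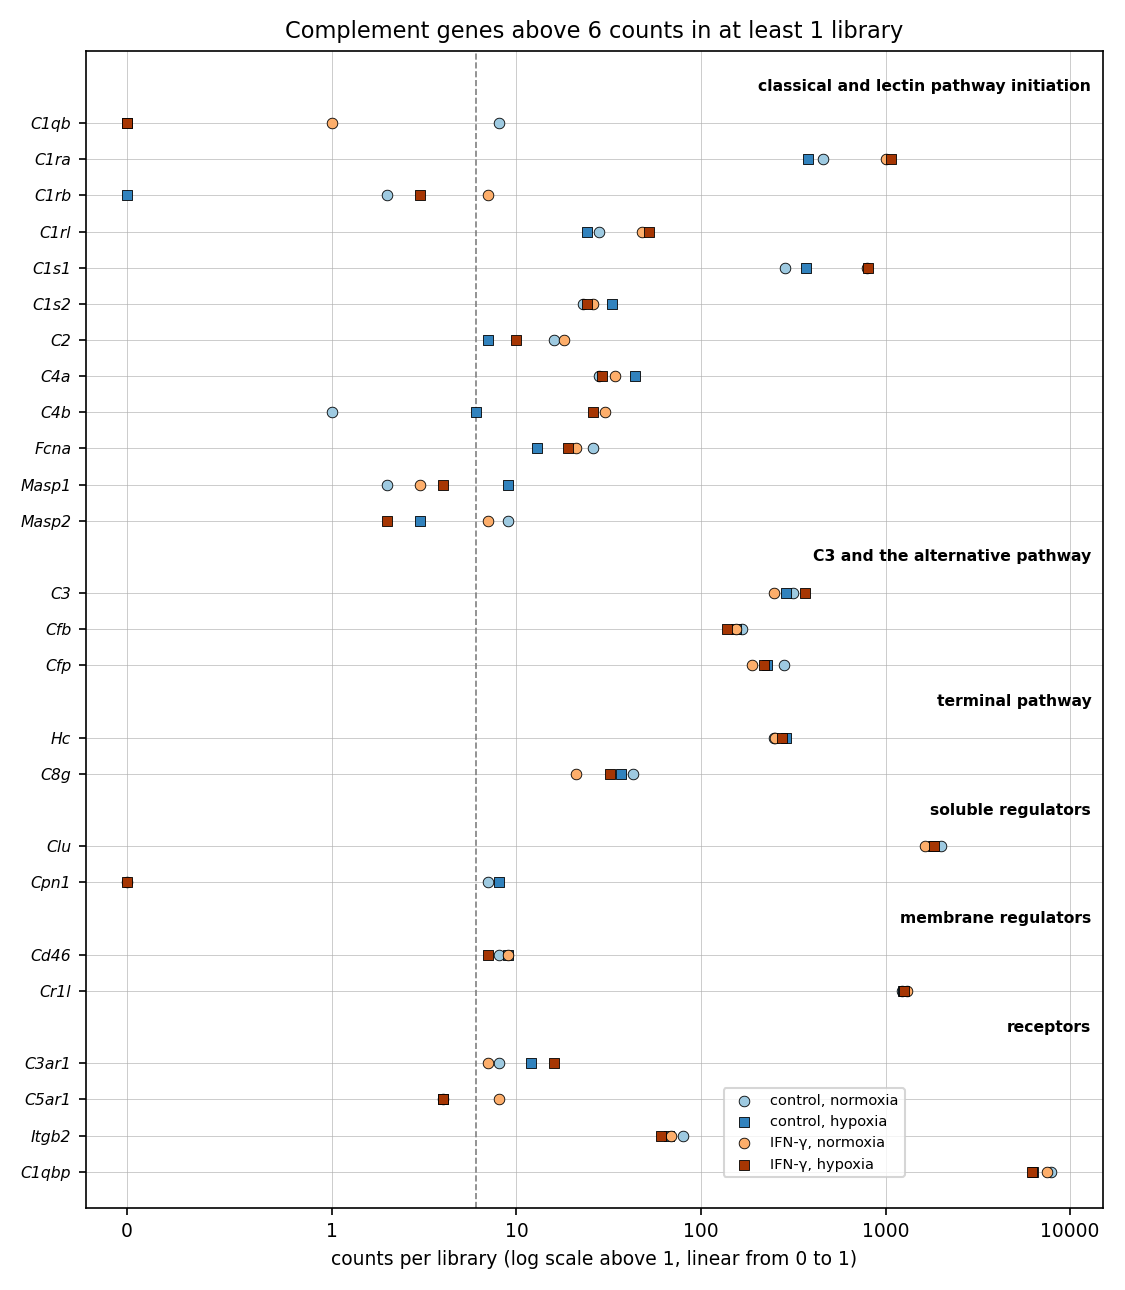
Counts in the 4 libraries of complement genes with more than 6 counts in at least 1 library, grouped by role, on an axis that is logarithmic above 1 and linear from 0 to 1, with a dashed line at 6 counts. Both IFN-γ points lie to the right for C1ra, C1s1 and C4b, and both hypoxic points to the left for C1qbp. Some genes that did not pass the test, such as C1rl and C2, separate in the same way.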

How the data were processed

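RNA was measured in 4 libraries of MC38 cells, 1 per condition, made strand-specific from poly-A RNA (per the labels) and sequenced from both ends on a DNBSEQ instrument. Reads were aligned with HISAT2. The submitters' processing notes name featureCounts and mm10, without versions. The authors deposited whole-number counts per gene without normalization. Symbols matched 25275 of 27179 gene IDs through RefSeq GRCm38.p6, which also gave the coordinates, and GENCODE vM21 of the same build gave exon lengths and shared 31-base words. No column was left without a sample.

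Among counts of 1 to 20, 63.2% to 64.8% were even, and 475 to 534 genes had 1 count where 1058 to 1091 had 2, as if both ends of a fragment were counted. Counting intervals (95%, Clopper-Pearson for pairs, Poisson for differences) therefore used counts halved and rounded up, and a 0 was taken to allow 3 read pairs. This was chosen after seeing the data. The log2 changes themselves used the counts as deposited, with 0.5 added and TMM scaling. Pair intervals had no counts added and were shifted by the TMM scaling, and the Poisson error had 0.5 added to the halved counts. Intervals cover counting error only.

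The test was edgeR 4.0.16 (R 4.3.3), quasi-likelihood, TMM, a minimum of 10 counts at the default filter, additive in IFN-γ and oxygen, Benjamini-Hochberg at 0.05. It left 1 residual degree of freedom per gene, and the pooled spread (CV 4.71%) mixes culture differences with interaction, so adjusted p-values do not stand in for replicate cultures. The estimated prior degrees of freedom were infinite, which makes these p-values smaller than in most alternatives. Alternatives were other scalings, DESeq2 1.42.0, other filters, no second term, a log2 change of at least 1, sums with copies, single pairs and halved counts. The members and lists were chosen with earlier results of these data known. The named genes were the members, their copies, called genes of the wider list, defining genes near 0, the 5 genes most like C3 and label checks, and Cr1l, Clu, Cd46, C1rl, Cfp, Hc and Nelfe were named after their values were seen. Some of these genes are not reported here. The TATA box was added to the motif search at that stage too.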

Additional observations from a re-analysis of the deposited data

Results flagged for a closer look

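In 7 of the 18 tested complement genes the single library pairs moved in opposite directions with IFN-γ under normoxia and under hypoxia, as they did in 43.9% of all 13580 genes tested. With 1 library per condition, none of these differences was tested. C3 went from -0.33 under normoxia to 0.35 under hypoxia, a difference of 0.68 on the log2 scale (counting interval 0.21 to 1.14). Clu, clusterin, went from -0.27 to 0.03, a difference of 0.30 (interval 0.12 to 0.49). The counting interval of the other 5 differences included 0: Fcna 0.83, C3ar1 0.58, Hc -0.09, C1s2 -0.63 and C4a -0.87.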

How the results depend on the processing

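Of 403 recomputed values of single genes, 390 kept their direction and side of the threshold or moved by less than their error, 4 lost their call, 0 gained one, 0 reversed and 9 moved. In fits and single pairs a reversal was counted only for a called change or a counting interval that left out 0. A change of sign in an uncalled gene, such as C4a in the normoxic pair (0.29 against -0.16 in the fit), was not counted as one. The rise of C1ra and C1s1 with IFN-γ passed in all 8 alternative fits. C4b lost its call under DESeq2's Wald test (log2 3.24, adjusted p = 0.143), without oxygen as a term (2.97, adjusted p = 0.131) and summed with C4a (0.62, adjusted p = 0.366), and was not tested where 10 counts were required in every library. The number of listed genes lowered by hypoxia went from 1 to 0 without IFN-γ as a term and where a log2 change of at least 1 was required. The values that moved were 3 of C3 and 4 of Clu in single pairs and 2 of C4b summed with C4a. Over all genes, edgeR called 647 raised and 149 lowered with IFN-γ and 1115 and 927 with hypoxia. Without the second term it called 239 and 3 with IFN-γ and 150 and 26 with hypoxia, and DESeq2 called 353 and 16, and 362 and 214. With no filter 71 genes were lowered by IFN-γ and with 10 counts in every library 74, with DESeq2's size factors 99. No paired analysis was possible because each condition is 1 library, with no replicate numbers to pair, and oxygen was a term of the additive fit instead. Leaving out a library leaves the additive fit no residual degree of freedom, so single pairs stood in. Depth limits C4b, C2, Serping1, Cd55 and Cd59a.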
